A study of Rattus norvegicus with 15 samples.

Results

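The transcripts described are the 3 TGF-beta ligands (Tgfb1, Tgfb2, Tgfb3), their 3 receptors (Tgfbr1, Tgfbr2, Tgfbr3), the signal carriers Smad2 and Smad3, the inhibitor Smad7, and Tgfbi, a matrix protein named for its induction by TGF-beta. These 10 genes were chosen by symbol with earlier results of these data known, and all 10 were among the 11574 genes of the count table. They were measured by RNA-seq in H9c2, a wild-type myoblast line derived from embryonic rat heart, in 15 cultures with 3 biological replicates in each of 5 groups. T0 cultures carried no retinoic acid (RA) and were taken the day after seeding. T7-RA and T14-RA are the day 7 and day 14 cultures without RA, in medium whose serum was lowered from 10% to 1% the day after seeding (the study counts these days from seeding in one place and from the start of treatment in another), and T7+RA and T14+RA cultures additionally received 1 µM all-trans RA every day. H9c2 is a single line, time in culture and the lowered serum cannot be told apart in any comparison with T0, and the sources used here do not say whether the cultures without RA received the DMSO in which RA was dissolved.

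TGF-beta ligands are secreted in a latent form that is stored in the extracellular matrix and released by integrins and proteases. An active ligand is brought by the co-receptor Tgfbr3 (betaglycan) to the receptor kinase Tgfbr2, which activates the kinase Tgfbr1, which in turn phosphorylates Smad2 and Smad3. These enter the nucleus with Smad4 and change transcription, and among the induced genes is Smad7, which blocks the receptor complex in a negative feedback loop. In muscle precursors the pathway is known for restraining differentiation, and in heart and other tissues for driving the production of matrix.

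Total counts per library ranged from 508397 to 1030820. The T0 replicates, on which every comparison with T0 rests, differed more from each other (chi-square per gene from 2.06 to 3.09) than the replicates of T7-RA, T14-RA and T7+RA (1.07 to 1.53), and those of T14+RA gave 1.44 to 2.04. Levels are given as CPM (the counts of a gene relative to its library, after TMM scaling for library composition), and changes are on the log2 scale with their standard error (SE). The edgeR quasi-likelihood test was run on all 11574 genes, p-values were adjusted by the Benjamini-Hochberg method, and calls needed an adjusted p under 0.001, the threshold that the study had set. Of the myoblast and muscle markers, 5 of 8 were measured, and their summed level, mostly Myh3 after T0, lay between 182 and 248 CPM at T0, between 1798 and 2112 CPM in T7-RA and between 5918 and 6242 CPM in T14-RA. With RA the sum lay between 995 and 1154 CPM at T7 and between 2402 and 2790 CPM at T14. Myod1, a myoblast regulator in that list, differed from the sum, with 115 ± 40.2 CPM at T0, 87.9 ± 10.2 CPM in T7-RA, 80.2 ± 16.02 CPM in T14-RA, 149 ± 12.8 CPM in T7+RA and 65.0 ± 10.8 CPM in T14+RA. The cardiomyocyte markers Gata4 and Pln, the 2 of 8 that were measured, summed to at most 34.8 CPM in any library, and Tek, the 1 of 5 endothelial markers measured, reached at most 6.29 CPM. Cd14, the 1 of 4 leukocyte markers measured, ranged from 10.5 to 58.1 CPM and was highest in T14+RA. Fibroblast markers, 3 of 6 measured and mostly Col3a1, summed to between 3135 and 8560 CPM. Thy1 in that list differed from the sum, with 290 ± 43.9 CPM at T0, 240 ± 13.3 CPM in T7-RA and 270 ± 13.3 CPM in T14-RA. With RA it measured 179 ± 13.3 CPM at T7 and 180 ± 30.2 CPM at T14. The muscle and fibroblast sums, carried mostly by Myh3 and Col3a1, differed between the groups, and their part in the changes below was not tested. In these bulk libraries fewer cells expressing a gene and less of its RNA per cell cannot be told apart. Groups of this size often lie apart without overlap, in either direction. This held for 33.3% of all genes between T0 and T7-RA. Between cultures with and without RA it held for 24.4% of all genes at day 7 and 27.2% at day 14. Where libraries are said below to lie above or below others, that alone is a description and not a call.

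In the additive model, time changed 6 of the members and the RA term, an average over both days, was called for 3, with ligand genes among both. That model held a term each for T7 and T14, which compare that day with T0 once RA is accounted for, and a term for RA. In it, 4 members were called for T7 (Tgfbr3 and Smad3 higher, Tgfb3 and Smad7 lower) against 8.73% of all genes. For T14, 6 members were called (Tgfbr2, Tgfbr3 and Smad3 higher, Tgfb2, Tgfb3 and Smad7 lower) against 17.3% of all genes. For RA, Tgfb2, Tgfb3 and Tgfbi were called, all higher, against 6.39% of all genes. The median change of the 10 members was -0.22 for T7, -0.22 for T14 and 0.20 for RA, beside medians over all genes of 0.02, 0.05 and -0.01. Tgfb1, Tgfbr1 and Smad2 were called in no comparison.

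**Figure D1:**
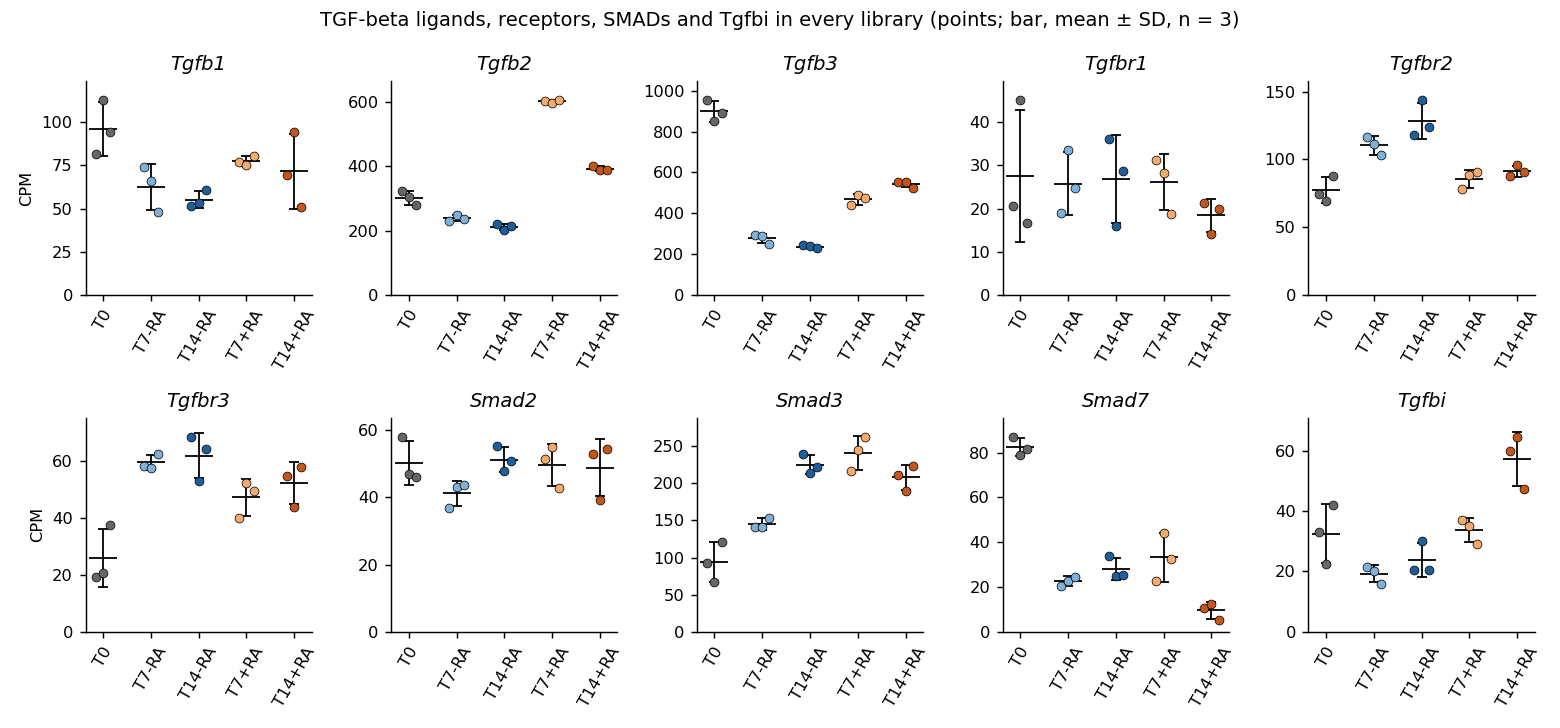
CPM of the 10 genes in each of the 15 libraries (points, one color per group), with the mean ± SD of each group of 3 as black bars and a vertical axis that starts at 0 for each gene. Tgfb2 was highest in T7+RA, Tgfb3 and Smad7 were highest at T0, Tgfbi was highest in T14+RA, and the groups of Tgfbr1 overlapped.

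Tgfb2 encodes the ligand that depends most on the co-receptor Tgfbr3, and it was raised by RA on both days. It measured 321, 304 and 279 CPM at T0, 230.2, 249 and 235 CPM in T7-RA and 219.8, 202 and 215 CPM in T14-RA. With RA it measured 603, 595 and 603 CPM at T7 and 401, 388 and 388 CPM at T14. Every library with RA lay above every library without RA, T0 included, and the day 14 libraries with RA lay below those of day 7.

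The RA change of Tgfb2 was 1.33 (SE 0.105, adjusted p = 1.95e-16) at day 7 and 0.88 (SE 0.111, adjusted p = 3.33e-09) at day 14. Between day 7 and day 14 with RA it fell by 0.61 on the log2 scale (SE 0.1, adjusted p = 3.45e-06), whereas the same week without RA gave -0.16 (adjusted p = 0.521). The difference between the RA changes of the 2 days, called at an adjusted p under 0.05, was -0.45 with a 95% interval from -0.76 to -0.14 and did not pass (adjusted p = 0.234). The T14 term was -0.64 (SE 0.118, adjusted p = 1.14e-05), and the T7 term, -0.23, was not called (adjusted p = 0.161).

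RA acts through nuclear receptors that bind pairs of short half-sites, so the promoter windows of the members (RefSeq, build GRCr8, from 250 bases before to 50 after the annotated start of a gene) were searched on both strands for the hexamer AGGTCA and for 3 variants of it, spelled AGTTCA in the first, GGGTCA in the second and GGTTCA in the last. All 10 members matched, with 11 windows. Half-sites of any of the 4 spellings were found in the windows of 2 members, Tgfb2 and Tgfbr2, against 44.4% of the 33469 windows of the genome, and each match had the spelling AGTTCA, which 14.5% of windows hold. The sites are shown because they are all the matches in member windows and Tgfb2 was raised by RA on both days; capitals mark the hexamer, and a capital TGAACT is AGTTCA read on the other strand.
Tgfb2, chr13:100792742-100792771, minus strand: ccggaggatcggAGTTCAgatcagccactc
Tgfb2, chr13:100792704-100792733, minus strand: agcctgacacacTGAACTccatttcttcct
Tgfbr2, chr8:124761626-124761655, minus strand: cacttctgagttTGAACTtggagccgggac
The hexamers begin at -74 and -36 relative to the annotated start of Tgfb2 and at -174 for Tgfbr2, and all 3 stretches lie within the span of a longer annotated form of the gene. No member window held 2 half-sites in tandem with 1, 2 or 5 bases between them, arrangements that 0.233%, 0.17% and 0.382% of all windows hold. The windows of Tgfb3 and Tgfbi, the other members raised by RA, held no match, and the SMAD-binding letters CAGAC, found in 50.1% of all windows, were in no member window. A match in these letters is a description of the sequence and not a measurement of binding. The counts were made on build Rnor_6.0, per the submitters' processing notes, so these coordinates cannot be set beside them.

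Tgfb3, the ligand with the most transcript per length in every group, fell during culture and was raised by RA. It measured 952, 849.9 and 893 CPM at T0, 292, 290.0 and 251 CPM in T7-RA and 245, 239 and 229 CPM in T14-RA. The libraries with RA measured 439, 490.0 and 475 CPM at T7 and 555, 552 and 524 CPM at T14. Those with RA lay between the T0 libraries and the libraries of the same day without RA, with no overlap on either side.

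The fall of Tgfb3 in the first week without RA was 1.69 on the log2 scale (log2 change -1.69, SE 0.103, adjusted p = 1.13e-21), and the second week gave -0.23 (adjusted p = 0.27). The RA change was 0.75 at day 7 (SE 0.105, adjusted p = 1.1e-07) and 1.19 at day 14 (SE 0.108, adjusted p = 3.93e-14). The RA change of Tgfb3 was thus numerically larger at day 14, and that of Tgfb2 at day 7, but the difference for Tgfb3, 0.44 (95% interval 0.14 to 0.75), did not pass either (adjusted p = 0.231).

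Tgfb1, the ligand most studied in fibrosis, was called in no comparison. It measured 81.4, 113 and 94.3 CPM at T0, 74.0, 65.8 and 47.9 CPM in T7-RA, and 51.6, 53.1 and 61.0 CPM in T14-RA. With RA the libraries measured 77.0, 75.2 and 80.6 CPM at T7 and 69.5, 94.3 and 50.8 CPM at T14. The T14 term was -0.76 (SE 0.19) with an adjusted p of 0.00103, just outside the threshold, and it passed without T7-RA replicate 1 (adjusted p = 0.000718) or T14+RA replicate 2 (adjusted p = 0.000331), with the edgeR filter by group (adjusted p = 0.000906) and with a replicate block (adjusted p = 0.000789). The RA term was 0.34 with a 95% interval from 0.05 to 0.62 (adjusted p = 0.115), smaller than the RA terms of the other ligands, a contrast between genes that was not tested.

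To compare ligands with each other, counts were divided by the gene length given in the table, read here as that of the longest transcript, and scaled to TPM. The summed TPM of the 3 ligands was 929 ± 67.0 (SD, n = 3) at T0. On days 7 and 14 it was 396 ± 21.8 and 336 ± 10.7 without RA, beside 738 ± 21.2 and 658 ± 13.5 with RA. The sums of the 5 groups did not overlap. Tgfb3 supplied 74.9% ± 2.09 of the sum at T0, 55.7% ± 0.222 in T7-RA, 54.7% ± 1.79 in T14-RA, 62.6% ± 1.35 in T14+RA and, its lowest share, 50.4% ± 1.57 in T7+RA.

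The share of Tgfb2 was 15.2% ± 0.766 at T0 and 39.3% ± 1.25 in T7+RA, its lowest and highest, and between 26.1% and 31.5% in each library of the other 3 groups. Tgfb1 supplied between 7.56% and 17.3% in any library. The log2 ratio of Tgfb2 to Tgfb3 counts, which needs neither length nor library size, was -1.58 ± 0.0983 at T0, -0.22 ± 0.125 in T7-RA, -0.16 ± 0.0781 in T14-RA, -0.47 ± 0.0368 in T14+RA and 0.36 ± 0.0901 in T7+RA. T7+RA was the only group with more Tgfb2 than Tgfb3 counts, and this held in each of its 3 libraries. These shares and ratios are descriptions, without a test.

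**Figure D2:**
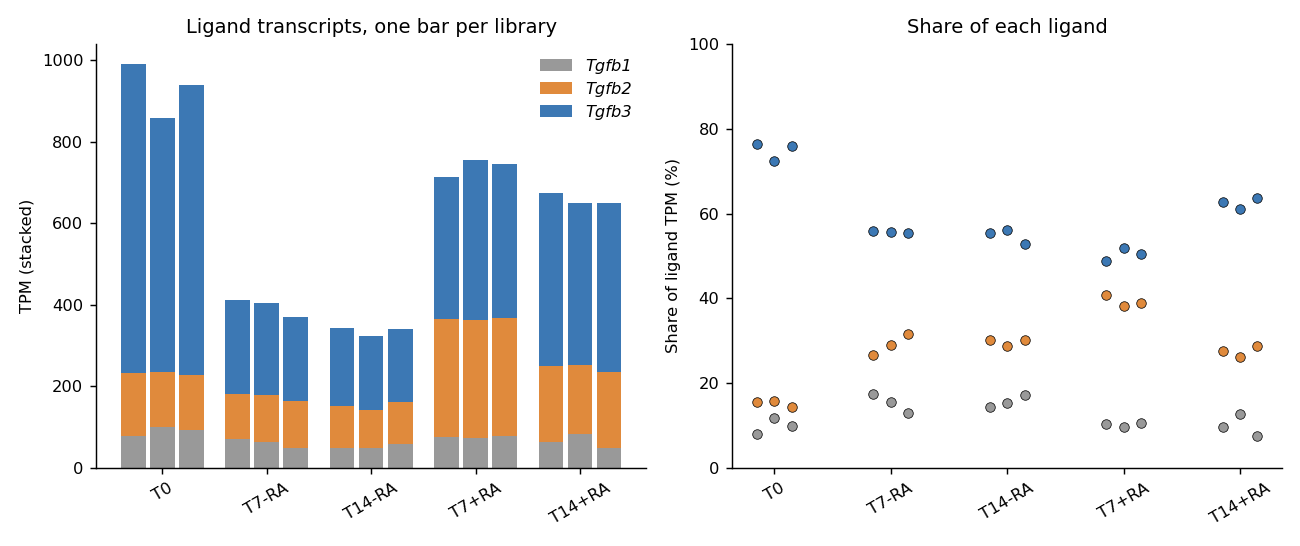
Left, TPM of Tgfb1, Tgfb2 and Tgfb3 stacked in one bar per library, grouped by day and RA, with the axis from 0. Right, the share of each ligand in the ligand TPM of each library (%). The stacked height was 929 TPM at T0 and 336 TPM in T14-RA on average, and the share of Tgfb2 reached 39.3% in T7+RA.

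Of the receptors, Tgfbr2 and Tgfbr3 changed, and both rose with time. Tgfbr3, the co-receptor betaglycan, measured 19.3, 20.6 and 37.7 CPM at T0, 58.5, 57.8 and 62.5 CPM in T7-RA, 68.5, 53.1 and 64.3 CPM in T14-RA, 39.9, 52.4 and 49.7 CPM in T7+RA and 55.0, 44.0 and 58.0 CPM in T14+RA. All later libraries lay above all T0 libraries. The T7 term was 1.23 (SE 0.243, adjusted p = 8.98e-05) and the T14 term 1.34 (SE 0.244, adjusted p = 9.92e-06). The T7 call was lost without T0 replicate 1 (adjusted p = 0.00497) or T0 replicate 2 (adjusted p = 0.00102). The RA term, -0.29 (95% interval -0.59 to 0.01), was not called (adjusted p = 0.224).

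Tgfbr2, the kinase that binds the ligand, measured 74.5, 69.4 and 88.0 CPM at T0, 117, 112 and 103 CPM in T7-RA and 118, 143 and 124 CPM in T14-RA. With RA the values were 78.4, 88.6 and 90.8 CPM at T7 and 87.8, 95.9 and 90.6 CPM at T14. The libraries with RA lay below those of the same day without RA and overlapped T0. The T14 term was 0.70 (SE 0.161, adjusted p = 0.000352), lost without T0 replicate 1 (adjusted p = 0.0034), T0 replicate 2 (adjusted p = 0.00256) or T14-RA replicate 2 (adjusted p = 0.00259), and in DESeq2 (adjusted p = 0.00124). The RA term was -0.43 (SE 0.112) and missed the threshold (adjusted p = 0.00428), so the lower level with RA is given here as values only.

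Tgfbr1, the kinase that phosphorylates the SMADs, had the fewest reads of the members, with 8 to 30 counts per library and 257 in all. Its level was 27.5 ± 15.3 CPM at T0, 25.8 ± 7.32 CPM in T7-RA, 26.9 ± 10.2 CPM in T14-RA, 26.1 ± 6.50 CPM in T7+RA and 18.4 ± 3.77 CPM in T14+RA, and its groups overlapped in all 5 pairs compared. The RA term was -0.24 with a 95% interval from -0.72 to 0.24 (adjusted p = 0.609), which leaves room for a change in either direction at this depth.

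**Figure D3:**
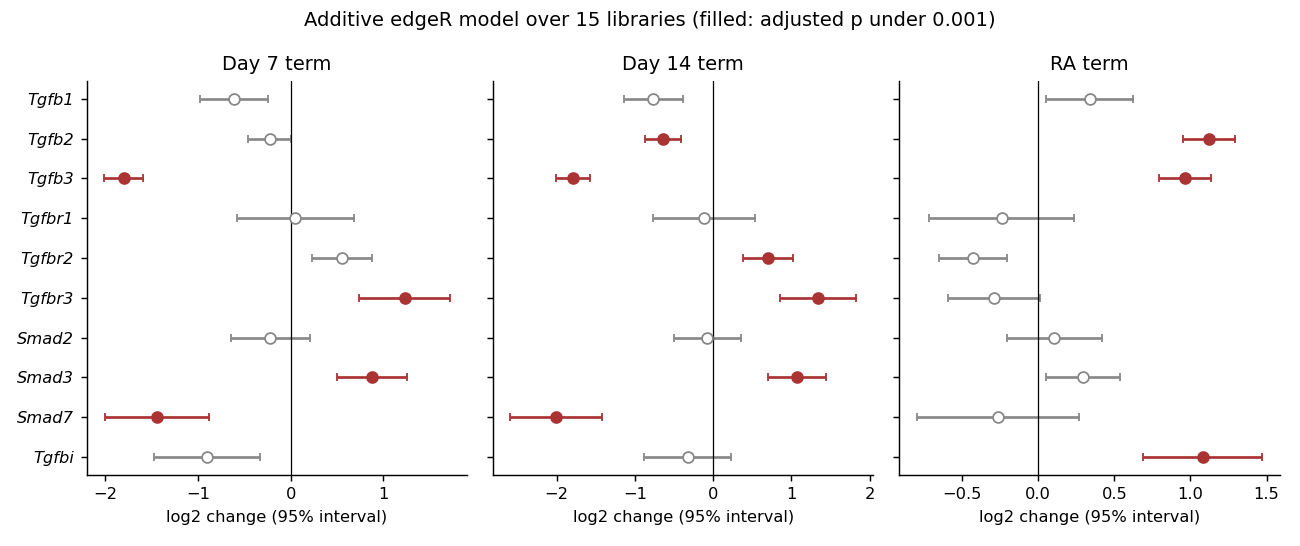
Log2 changes of the 10 genes with 95% intervals for the day 7, day 14 and RA terms of the additive edgeR model over 15 libraries; filled red points have an adjusted p under 0.001. Tgfb3 and Smad7 lie farthest to the left for time, at -1.79 and -2.01 for day 14, and Tgfb2, Tgfbi and Tgfb3 lie farthest to the right for RA, at 1.12, 1.08 and 0.97.

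Smad3 rose with time, and its T7+RA libraries already overlapped those of T14-RA. It measured 92.4, 67.5 and 122 CPM at T0, 141, 141 and 154 CPM in T7-RA and 239, 214 and 222 CPM in T14-RA. With RA the values were 217, 244 and 262 CPM at T7 and 211, 190.2 and 223 CPM at T14. The T7+RA libraries lay above the T7-RA libraries, and at day 14 the groups with and without RA overlapped.

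The RA change of Smad3 was 0.73 at day 7 (SE 0.133, adjusted p = 3.6e-05) and -0.12 at day 14 (SE 0.129, adjusted p = 0.68). The gap between these changes, -0.85 (SE 0.185), passed its threshold (adjusted p = 0.00698). It was one of 86 genes, 0.743% of all genes, for which that difference was called. The first week without RA gave 0.64 (SE 0.159), which missed the threshold (adjusted p = 0.00161) but passed without T0 replicate 3 (adjusted p = 0.000176) and with scaling by library size only (adjusted p = 0.000183), at least 10 counts in every library (adjusted p = 0.000699) or a replicate block (adjusted p = 0.000804). The second week gave 0.64 (SE 0.134, adjusted p = 0.000468) and with RA -0.21 (adjusted p = 0.351). The day 7 call was lost without T7-RA replicate 1 (adjusted p = 0.00105) or T7+RA replicate 3 (adjusted p = 0.00133), whereas the difference between days passed with any library left out (highest adjusted p 0.0462). The call for the second week without RA was lost without any 1 of the 6 libraries of T7-RA and T14-RA (adjusted p from 0.00133 to 0.0117), in DESeq2 (adjusted p = 0.00129) and in limma-voom (adjusted p = 0.00123).

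The T14 term of Smad3 was 1.07 (SE 0.185, adjusted p = 1.45e-05) and its T7 term 0.88 (SE 0.188, adjusted p = 0.000576). The T7 term missed the threshold without T0 replicate 1, T0 replicate 2, T7-RA replicate 3, T14-RA replicate 2, T7+RA replicate 1 or T14+RA replicate 3 (adjusted p from 0.00108 to 0.00724).

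Smad2, which carries the same signal, was called in no comparison. Group means ranged from 41.2 ± 3.65 CPM in T7-RA to 51.3 ± 3.74 CPM in T14-RA, with 50.3 ± 6.61 CPM at T0, 49.7 ± 6.25 CPM in T7+RA and 48.9 ± 8.36 CPM in T14+RA. The RA term was 0.10 with a 95% interval from -0.21 to 0.42 (adjusted p = 0.76), and the T14 term was -0.07 with an interval from -0.50 to 0.35 (adjusted p = 0.83).

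Smad7, the feedback inhibitor, fell with time. It measured 86.9, 78.8 and 81.8 CPM at T0, 20.3, 22.8 and 24.7 CPM in T7-RA and 33.6, 24.8 and 25.4 CPM in T14-RA, and with RA 22.8, 44.3 and 32.6 CPM at T7 and 10.6, 12.6 and 5.44 CPM at T14. All later libraries lay below T0, and the T14+RA libraries lay below all others. Behind the T14+RA values stand 11, 8 and 3 counts, so counting error alone is large there.

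The first week without RA gave a change of -1.87 in Smad7 (SE 0.25, adjusted p = 1.6e-08), and the week between T7+RA and T14+RA gave -1.74 (SE 0.342, adjusted p = 0.000104). The RA change was 0.57 at day 7 (95% interval -0.00 to 1.14, adjusted p = 0.296) and -1.51 at day 14 (SE 0.354), which missed the threshold (adjusted p = 0.00131) and passed it without T0 replicate 2 (adjusted p = 0.000887). The difference between the days, -2.08 (SE 0.457), was called (adjusted p = 0.00721) and was lost without T14-RA replicate 1 (-1.92, adjusted p = 0.0692) or T7+RA replicate 2 (-1.79, adjusted p = 0.0888), and DESeq2 gave it no adjusted p. The call between T7+RA and T14+RA was lost without T7+RA replicate 2 (adjusted p = 0.00905), T14+RA replicate 1 (adjusted p = 0.00166) or T14+RA replicate 3 (adjusted p = 0.00141), and in limma-voom (adjusted p = 0.00116).

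The T7 term of Smad7 was -1.44 (SE 0.278, adjusted p = 0.00011) and missed the threshold without T0 replicate 1 or any 1 of the T7-RA replicates (adjusted p from 0.0011 to 0.00227). The T14 term, -2.01 (SE 0.29, adjusted p = 3.28e-07), passed with any library left out.

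**Figure D4:**
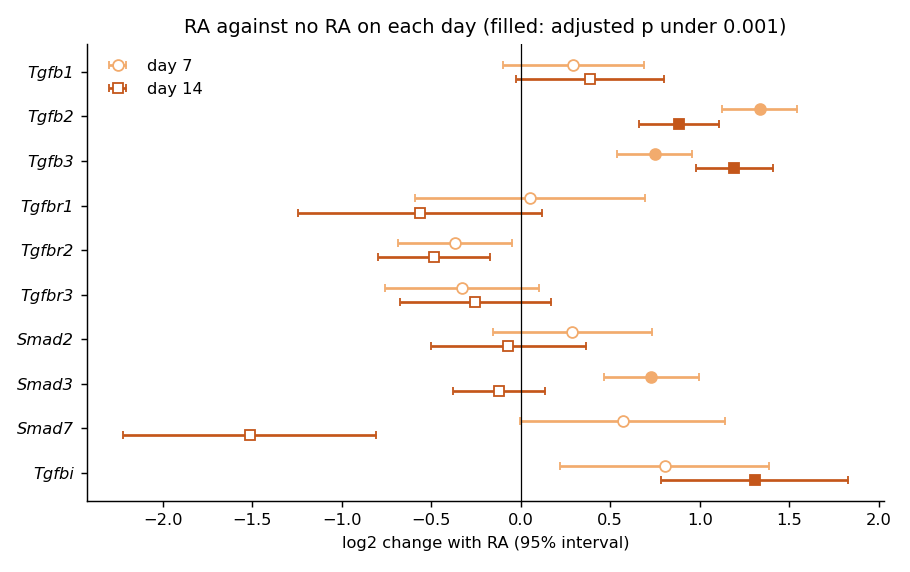
Log2 change with RA at day 7 (circles) and at day 14 (squares) for the 10 genes, with 95% intervals, from the edgeR model of group means; filled symbols have an adjusted p under 0.001. Tgfb2 and Tgfb3 lie to the right on both days, while for Smad3 (0.73 and -0.12) and Smad7 (0.57 and -1.51) the 2 symbols stand apart.

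Tgfbi, the secreted matrix protein, was raised by RA. It measured 33.1, 22.5 and 41.9 CPM at T0, 21.5, 20.2 and 16 CPM in T7-RA and 20.4, 30.1 and 20.3 CPM in T14-RA. With RA it measured 37.1, 34.9 and 29.1 CPM at T7 and 59.8, 64.4 and 47.1 CPM at T14. The libraries with RA lay above those of the same day without RA, and the T14+RA libraries lay above all others. The RA term was 1.08 (SE 0.196, adjusted p = 2.21e-05), the change at day 14 was 1.31 (SE 0.262, adjusted p = 0.000146), and the change at day 7, 0.80, was not called (adjusted p = 0.086). The day 14 call was lost without T14-RA replicate 1, T14-RA replicate 3, T14+RA replicate 1 or T14+RA replicate 2 (adjusted p from 0.00159 to 0.00594) and in DESeq2 (adjusted p = 0.00238), and the RA term passed with any library left out (highest adjusted p 0.000385).

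Taken one comparison at a time in the model of group means, 3 members were called between T0 and T7-RA (Tgfbr3 higher, Tgfb3 and Smad7 lower) against 8.78% of all genes, and 1 between T7-RA and T14-RA (Smad3, higher) against 2.95%. Between T7+RA and T14+RA, Tgfb2 and Smad7 were called, both lower, against 4.67% of all genes. With RA at day 7, Tgfb2, Tgfb3 and Smad3 were called, all higher, against 3.17% of all genes, and at day 14 Tgfb2, Tgfb3 and Tgfbi, all higher, against 4.81%. The call of Tgfbr3 between T0 and T7-RA was lost without T0 replicate 1 (adjusted p = 0.00538).

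In order of TPM, Tgfb3 was first and Tgfb2 second in all 5 groups, and their ranges did not overlap in any group. At T0, Tgfb1 (90.7 ± 10.9 TPM) and Tgfbr2 (56.5 ± 9.15 TPM) followed, then Smad7, Smad2, Smad3 and Tgfbi, each overlapping the next, and last Tgfbr1 (9.60 ± 4.83 TPM) and Tgfbr3 (8.74 ± 3.72 TPM), which overlapped. In T14-RA, Tgfb2 (99.6 ± 5.90 TPM), Tgfbr2 (93.2 ± 8.29 TPM) and Smad3 (90.5 ± 6.06 TPM) each overlapped the next, and Smad7 (13.2 ± 2.41 TPM) and Tgfbr1 (9.59 ± 3.71 TPM) came last. In T14+RA, Smad3 (82.3 ± 10.3 TPM) came next, Tgfbi (42.3 ± 4.97 TPM) followed further down and overlapped Smad2 (37.2 ± 7.83 TPM), and Smad7 (4.36 ± 1.53 TPM) was last, overlapping Tgfbr1 (6.45 ± 1.54 TPM).

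The genes whose course over the 15 libraries was most like that of the 3 members raised by RA were found by the root mean square difference of centred log2 CPM over the 8378 genes with a mean of at least 10 counts. For Tgfb2 they were Bcar1 (difference 0.16), Snx18 (0.20) and Fam20c (0.21), beside a range of 1.57 for Tgfb2 itself. For Tgfb3 they were Rasl11b (0.22), Plekha7 (0.26) and Nptxr (0.27), beside a range of 2.04, and for Tgfbi they were Ltbp1 (0.21), Arhgef10l (0.26) and AABR07025295.1 (0.28), beside a range of 1.83. The libraries share groups and depth, so these are descriptions of likeness.

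Of 60 further genes of the pathway in 5 lists, 53 were measured and the others were not analysed here. For T7, 3 were called higher and 16 lower, for T14, 6 higher and 22 lower, and for RA, 10 higher and 8 lower, beside the shares of all genes given above. Their median change was -0.17 for T7, -0.47 for T14 and -0.04 for RA. Scaled by library size only, the calls were 4 higher and 14 lower for T7 and 6 higher and 19 lower for T14. Under that scaling the median change of all genes was 0.13 for T7 and 0.15 for T14, and the calls over all genes went from 496 higher and 514 lower to 648 higher and 358 lower for T7.

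The genes that store and release latent ligand, all 12 measured, included 7 lower and 1 higher for T14 and 3 in each direction for RA. Over all genes, 17.3% were called for T14 and 6.39% for RA. Thbs1, a thrombospondin that activates latent TGF-beta, went from 8327 ± 931 CPM at T0 to 2409 ± 124 CPM in T14-RA and 1279 ± 152 CPM in T14+RA (T14 term -1.88, SE 0.0963, adjusted p = 5.01e-24; RA term -0.73, SE 0.076, adjusted p = 1.36e-11). Ltbp2 and Fbn1, matrix fibre proteins, fell for T14 (-1.61 and -1.20) and were not called for RA (-0.00, adjusted p = 0.989, and -0.28, adjusted p = 0.0508). Ltbp1, which binds the latent ligand, rose with RA (0.87), from 543 ± 27.8 CPM in T14-RA to 1169 ± 41.6 CPM in T14+RA. Itgb5, an integrin subunit able to release the ligand, fell for T14 (-0.87) and rose with RA (0.76).

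Of the co-receptors and ligand traps, 6 of 8 were measured. Fst, the activin and myostatin trap follistatin, fell with RA by 1.65 on the log2 scale (RA term -1.65, SE 0.128, adjusted p = 3.05e-16), from 127 ± 12.2 CPM in T14-RA to 43.2 ± 5.27 CPM in T14+RA. Bgn, a proteoglycan that binds TGF-beta, fell with RA (-0.62), and Eng, the co-receptor endoglin, fell for T14 (-0.60, adjusted p = 0.00067), a call lost without any 1 of 9 of the 15 libraries (adjusted p from 0.00102 to 0.0198), in DESeq2 (adjusted p = 0.00229), in limma-voom (adjusted p = 0.00109), by library size only (adjusted p = 0.00488) and with at least 10 counts in every library (adjusted p = 0.00166). Dcn, the related proteoglycan decorin, had 0 counts in each T0 library and reached 50.5 ± 7.19 CPM in T14-RA, at least 9.43-fold above a floor of 3 counts per T0 library, and it rose with RA (1.08, SE 0.218, adjusted p = 0.000229), a call lost in DESeq2 (adjusted p = 0.0038) and without T14+RA replicate 2 or any 1 of the T14-RA replicates (adjusted p from 0.00184 to 0.00423). Its RA change was called at day 14 (1.21, adjusted p = 8.81e-05) and not at day 7 (0.32, adjusted p = 0.852), where 16 counts without and 18 with RA stand behind it.

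The SMAD partners and regulators, all 15 measured, held 3 genes called for RA, against 6.39% of all genes. Those 3 were lower for T14 and higher for RA. Pmepa1, which keeps Smad2 and Smad3 from the receptor, measured 357 ± 22.5 CPM at T0, 82.3 ± 19.9 CPM in T14-RA and 231 ± 29.6 CPM in T14+RA (T14 term -2.24, SE 0.147, adjusted p = 3.6e-18; RA term 1.69, SE 0.114, adjusted p = 1.86e-17). Skil, the nuclear co-repressor SnoN, measured 70.2 ± 5.19, 17.1 ± 7.1 and 32.4 ± 6.51 CPM in the same groups (T14 term -2.23, RA term 1.22). Its RA change was called at day 7 (1.45, adjusted p = 1.06e-06), from 29.6 ± 2.05 to 80.8 ± 8.45 CPM, and not at day 14 (0.81, adjusted p = 0.0701). Smurf1, a ubiquitin ligase that acts on SMADs and receptors, followed with 203 ± 37.4, 90.9 ± 13.7 and 150 ± 13.6 CPM (T14 term -1.23, RA term 0.85). In T7+RA, Pmepa1 measured 397 ± 38.9 CPM and Smurf1 211 ± 19.9 CPM. All 3 genes thus had a T7+RA mean above that of T0, with overlapping libraries.

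Zfyve9, the anchor that presents SMADs to the receptor, and Usp15, a deubiquitinase of the pathway, rose for T14 (1.39 and 0.80), and Usp15 also for T7 (1.05, SE 0.181, adjusted p = 8.55e-06), a call kept under each alternative run and without any 1 library. For T14, the call of Zfyve9 was lost without any 1 of 9 of the 15 libraries (adjusted p from 0.00104 to 0.00929), and that of Usp15 without T0 replicate 2, T0 replicate 3, T14-RA replicate 2 or T14-RA replicate 3 (adjusted p from 0.00132 to 0.00457); both were lost in DESeq2 (adjusted p = 0.00356 and 0.00118) and limma-voom (adjusted p = 0.00388 and 0.0015). Neither was called for RA (-0.01 and -0.06). In the activin and myostatin branch, 5 of 8 genes were measured, of which Inhba, the activin A subunit, fell for T14 (-1.65, SE 0.256, adjusted p = 4.36e-07) and Gdf11, a ligand close to myostatin, rose with RA (0.74, SE 0.113, adjusted p = 6.06e-07), called at day 14 (0.95, adjusted p = 2.42e-06) and not at day 7 (0.54, adjusted p = 0.0121).

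Of the known target genes of TGF-beta, 16 of 18 were measured, with 10 lower and 2 higher for T14 and 2 higher and 3 lower for RA. Over all genes, 17.3% were called for T14 and 6.39% for RA. Ltbp2, lower for T14, is counted both here and among the genes of latent ligand storage. Ccn2, a matrix growth factor, fell for T14 (-1.84) and rose with RA (0.58), called at day 7 (0.86, adjusted p = 2.22e-10) and not at day 14 (0.29, adjusted p = 0.0474). Acta2 and Tagln, smooth muscle cytoskeletal genes, fell for T14 (-2.28 and -1.73) and were not called for RA (0.27, adjusted p = 0.00595, and 0.16, adjusted p = 0.194).

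Over the 5 lists, 11 of the 53 genes were called for both T14 and RA, against 3.21% of all genes, and the fits of both terms share libraries. Of these, 5 were lower for T14 and higher for RA (Ccn2, Itgb5, Pmepa1, Skil and Smurf1), as Tgfb2 and Tgfb3 were, against 0.752% of all genes. A further 3 rose with both (Cdkn2b, Dcn and Ltbp3), against 0.631%, and 3 fell with both, Fn1 and Thbs1 among them, against 0.415%. The combination higher for T14 and lower for RA was found in 0 of the 53, against 1.42% of all genes. That share is too small for this 0 to be read as a difference. Fn1, Cdkn2b and Ltbp3 are outside the rule for named genes and are named here beside the counts. The RA call of Cdkn2b was lost without any 1 of the 6 day 7 libraries (adjusted p from 0.00152 to 0.00336) and in DESeq2 (adjusted p = 0.00236), and the T14 call of Ltbp3 without T0 replicate 1 (adjusted p = 0.00987).

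**Figure D5:**
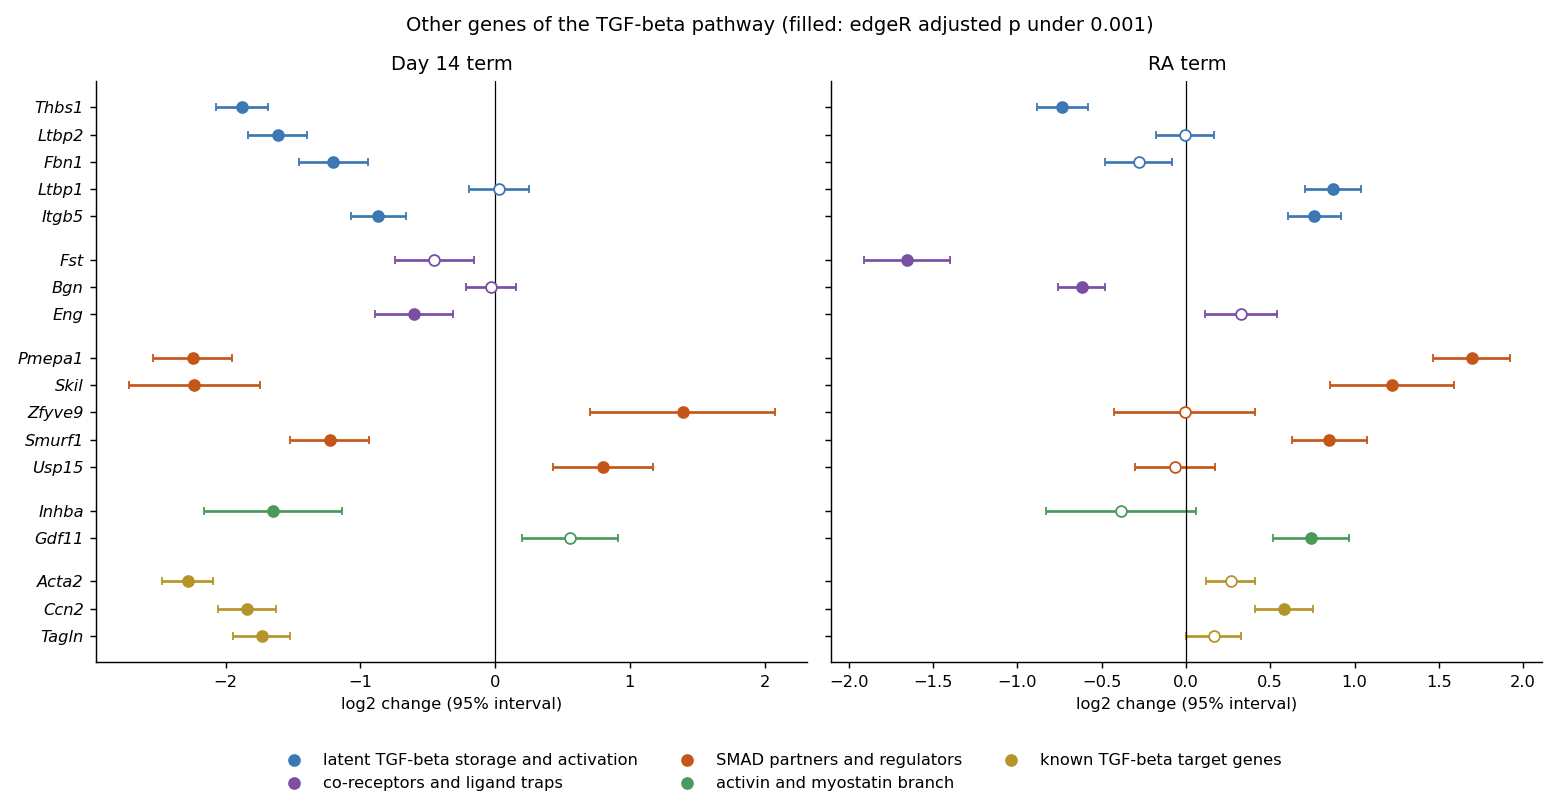
Log2 changes with 95% intervals for the day 14 term (left) and the RA term (right) of the named pathway genes, colored by list; filled points have an edgeR adjusted p under 0.001, and Dcn is left out because its T0 count was 0. Pmepa1, Skil and Smurf1 lie to the left for day 14 and to the right for RA, whereas Thbs1 lies to the left in both panels.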

How the data were processed

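RNA-seq of 15 H9c2 cultures was analysed. Stranded mRNA libraries were sequenced in pairs on a MiSeq, and the authors mapped the reads with HISAT2 to Rnor_6.0 and counted them per gene with featureCounts. Raw counts were deposited by the authors for genes with more than 20 counts over all libraries; the smallest sum was 21. Tool versions, annotation release and strand setting are not given in the sources used here, so overlapping or antisense genes cannot be separated. Groups and replicate numbers came from the labels.

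Counts were fitted in edgeR 4.0.16 (R 4.3.3; TMM, robust quasi-likelihood) to the study's formula with T7, T14 and RA terms, and to 5 group means for single contrasts. P-values were adjusted within each term over 11574 genes. Calls needed an adjusted p under 0.001, or 0.05 for the difference between days. A prior count of 2 was used for log2 CPM. Alternatives were relative log expression factors, library size only, at least 10 counts in every library, edgeR's filter by group, DESeq2 1.42.0, limma-voom (limma 3.58.1), a replicate block, other thresholds and leaving out each library. The steps were tested on simulated data with a dispersion of 0.01 in every group. There edgeR recovered 43% of log2 changes of 1 for T7, 43.5% for T14 and 66% for RA. Among genes above the median count it recovered 75%, 78.8% and 99%. For single contrasts recovery was 30% to 39.5%, so a change of that size can go uncalled.

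The 10 members and all lists were chosen with earlier results of these data known. Named were the members, at most 5 called genes per pathway list by largest absolute change, and the 3 genes closest to each of the 3 members raised by RA; 1 gene that the rule named is not reported here and stays in the list counts. The chi-square between replicate libraries, over genes with at least 10 counts in the pair, ranged from 1.07 to 3.09 per gene, and no libraries were merged. Intervals cover the spread between cultures, and floors cover counting error only, since reads carry no molecular identifiers.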

Additional observations from a re-analysis of the deposited data

Results flagged for a closer look

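The RA changes of the 2 days differed for 2 members by the test of the difference itself. For Smad3 the RA change at day 14 minus that at day 7 was -0.85 (edgeR adjusted p = 0.00698), with a higher level under RA at day 7 and overlapping groups at day 14. For Smad7 the same difference was -2.08 (adjusted p = 0.00721), on T14+RA counts of 11, 8 and 3, and it did not pass without T14-RA replicate 1 (adjusted p = 0.0692) or T7+RA replicate 2 (adjusted p = 0.0888).

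Among the 53 pathway genes measured, the difference passed for 2 of the known targets. For Ccn2 it was -0.58 (adjusted p = 0.0221), from a RA change of 0.86 at day 7 and 0.29 at day 14, and it did not pass without any 1 of 7 of the 15 libraries (adjusted p up to 0.115). For Cdkn2b it was -1.01 (adjusted p = 0.0268), from 1.15 at day 7 and 0.15 at day 14, and it did not pass without any 1 of 8 libraries (adjusted p up to 0.13) and in DESeq2 (adjusted p = 0.0649). All 4 genes had the more positive RA change at day 7, and 53 of the 86 genes called over the whole table had that direction.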

How the results depend on the processing

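The number of members called changed by more than 1.5 times in these cases. At an adjusted p under 0.05 there were 7 for T7, 7 between T0 and T7-RA and 5 with RA at day 14, and at 0.001 there were 0 for the difference between days (2 in edgeR at 0.05). Between T7-RA and T14-RA there were 0 in DESeq2 and limma-voom, which gave adjusted p of 0.00129 and 0.00123 for Smad3. Between T7+RA and T14+RA there was 1 in limma-voom. With at least 10 counts in every library, which removed Tgfbr1 and Smad7, there was 1 in that comparison and 1 for the difference between days, and DESeq2 gave 1 for the difference, with no adjusted p for 3 members. With 1 library left out, members called ranged from 1 to 4 for T7, 0 to 1 between T7-RA and T14-RA, 1 to 2 between T7+RA and T14+RA and 1 to 2 for the difference. Pathway gene counts stayed within 1.5 times for the 3 terms, at 13 to 20 for T7, 22 to 28 for T14 and 16 to 19 for RA with 1 library left out. For the difference between days, in alternatives added after seeing the data, the 2 pathway genes became 4 in limma-voom and with the replicate block, 1 in DESeq2 and with at least 10 counts in every library, 0 at 0.001, and 0 to 5 with 1 library left out (0 without T7-RA replicate 3, T14-RA replicate 3, T7+RA replicate 2, T7+RA replicate 3 or T14+RA replicate 1, and 5 without T0 replicate 2).

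Of 609 log2 changes of members under other settings, 597 kept direction and side of the threshold and 2 reversed, both by library size only: Smad2 for T14 (0.0334) and Tgfbr1 between T0 and T7-RA (0.0207). With 1 library left out, 1290 of 1350 did, and changes that were never called spanned 0: Tgfbr1 from -0.15 to 0.56 for T7, from -0.39 to 0.41 for T14, from -0.33 to 0.43 between T0 and T7-RA, from -0.19 to 0.36 between T7-RA and T14-RA and from -0.14 to 0.29 for RA at day 7, Smad2 from -0.15 to 0.0753 for T14, from -0.11 to 0.0910 between T7+RA and T14+RA and from -0.15 to 0.0587 for RA at day 14, Tgfb1 from -0.32 to 0.0323 between T7+RA and T14+RA, Tgfbr3 from -0.0147 to 0.16 between T7-RA and T14-RA and, for the difference between days, Tgfb1 from -0.12 to 0.24 and Tgfbr3 from -0.0365 to 0.17. The replicate block left 3 members called for RA and raised those for T14 from 6 to 7 (Tgfb1 then passed, -0.76, adjusted p = 0.000789) and between T0 and T7-RA from 3 to 4 (Smad3, 0.64, adjusted p = 0.000804). Over all genes, deviations of cultures with the same number had a mean r of 0.018 (from -0.0352 to 0.0991), beside -0.009 for different numbers. Counting noise in genes of few counts lowers such values, so whether the numbers pair the samples was not settled. Where not stated, the cause was not tested. Depth limits Tgfbr1, Smad7 and Tgfbi most, with 257 to 344 counts in all.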

Other observations

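Of the 16 known target genes measured, 10 were called lower for T14 and 2 higher, against 17.3% of all genes called. Those 2, the cell cycle inhibitors Cdkn1a and Cdkn2b, were singled out after their values were seen. Cdkn1a, which encodes p21, went from 163 ± 22.6 CPM (SD, n = 3) at T0 to 358 ± 2.22 CPM in T14-RA and 309 ± 33.1 CPM in T14+RA, with a T14 term of 1.09 (SE 0.125, edgeR adjusted p = 1.26e-10). Cdkn2b, which encodes p15, went from 25.5 ± 5.86 CPM at T0 to 80.1 ± 12.1 CPM in T14-RA, with a T14 term of 1.35 (SE 0.257, adjusted p = 2.51e-05), and it reached 130 ± 9.32 CPM in T7+RA. Snai2, a transcription factor of mesenchymal cells, fell with RA (RA term -1.28, SE 0.254, adjusted p = 0.000104) and measured 28.4 ± 11.9 CPM in T14-RA and 7.08 ± 6.40 CPM in T14+RA; the call was lost without T14-RA replicate 2 (adjusted p = 0.00104).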
